A study of Mus musculus with 6 samples.

Results

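The histone deacetylases of class I and II were followed in the forebrain cortex of adult mice (C57BL/6 background) bred to lose Dicer in neurons. The members were taken as a list of 10 genes, Hdac1 to Hdac10, and all 10 have a probe set that maps to a single gene symbol, among 19938 genes measured in all. Class I holds 4 of them (Hdac1, Hdac2, Hdac3 and Hdac8), class IIa holds 4 (Hdac4, Hdac5, Hdac7 and Hdac9) and class IIb holds 2 (Hdac6 and Hdac10). Where a gene had several probe sets, the one of highest mean over the 6 arrays was read, which applied to Hdac1 and Hdac4. That mean takes no account of the groups. The family was put together with the result for Hdac9 already known, so its call below is a description and not independent evidence.

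The 3 animals labelled Dicer KO have the genotype CamKII-Cre/+;Dicer flox/flox. The 3 littermate controls are CamKII-Cre/+;Dicer flox/+ in some cases and +/+;Dicer flox/flox in others. Both control genotypes hold floxed Dicer, so every animal carries it, and controls of the first genotype also carry the Cre transgene. Which control has which genotype is not labelled. The CamKII promoter drives Cre in excitatory forebrain neurons, so interneurons, glia and vessels of the same tissue keep Dicer. Total RNA (200 ng per animal) went onto 1 Affymetrix whole-transcript array for each animal, and values are log2 expression as deposited. In such bulk tissue, fewer cells of a type and less RNA per cell cannot be told apart.

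Histone deacetylases remove acetyl groups from lysines, on histones and on other proteins, and on chromatin this usually goes with repression. Class I enzymes are mostly nuclear and work inside corepressor complexes: Hdac1 and Hdac2 in NuRD, Sin3 and CoREST, and Hdac3 in the NCoR and SMRT complexes. Class IIa proteins have little catalytic activity of their own, bind MEF2 transcription factors, and leave the nucleus with 14-3-3 proteins once calcium-dependent kinases phosphorylate them, which ties them to neuronal activity. Class IIb enzymes act largely outside chromatin, Hdac6 on tubulin and Hdac10 on polyamines.

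The promoters of Hdac9 are shown first, because Hdac9 was the member that differed most, with that of Hdac5 for comparison within class IIa. Promoters of Hdac1, Hdac3 and Hdac10 were not used, so the counts here leave those members out. For the other 7 members, RefSeq start sites of build GRCm38.p6 gave 11 promoters, each from 250 bases before to 50 bases after the start. They were searched for the MEF2 motif, CTA and TAG with 4 bases between them that are each A or T, which reads the same on both strands. It was found in 1 of these 11 promoters, that of Hdac5, and in 0.557% of all 32851 promoters of that length. The motif and the promoters shown were chosen after the sequences were searched, so the match is no test. It is in capitals below, and neither Hdac9 promoter holds it.
Hdac9, start site inside the gene, chr12:34528840-34529139, minus strand: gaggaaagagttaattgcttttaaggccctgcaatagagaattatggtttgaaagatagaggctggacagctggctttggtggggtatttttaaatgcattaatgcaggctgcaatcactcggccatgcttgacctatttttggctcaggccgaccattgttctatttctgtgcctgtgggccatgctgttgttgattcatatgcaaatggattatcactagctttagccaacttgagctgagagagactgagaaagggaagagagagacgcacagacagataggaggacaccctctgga
Hdac9, upstream start site, chr12:34917046-34917345, minus strand: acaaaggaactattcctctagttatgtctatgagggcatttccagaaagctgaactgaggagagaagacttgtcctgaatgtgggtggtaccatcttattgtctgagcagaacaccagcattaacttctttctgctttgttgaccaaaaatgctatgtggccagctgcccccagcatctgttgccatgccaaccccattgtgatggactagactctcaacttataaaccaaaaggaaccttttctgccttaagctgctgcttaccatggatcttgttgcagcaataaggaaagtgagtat
Hdac5, chr11:102230123-102230422, minus strand: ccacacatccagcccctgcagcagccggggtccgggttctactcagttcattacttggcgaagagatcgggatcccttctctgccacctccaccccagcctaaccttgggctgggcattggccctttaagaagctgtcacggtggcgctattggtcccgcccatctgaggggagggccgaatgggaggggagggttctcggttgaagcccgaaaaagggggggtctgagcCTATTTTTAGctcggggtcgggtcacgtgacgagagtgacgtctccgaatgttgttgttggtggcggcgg
The match begins 20 bases before the start in Hdac5. It is a description of letters, not a shown binding site, and no match says only that these letters are not in the window. The Hdac9 promoters held 0 and 3 CpG dinucleotides. The other 9 promoters held from 5 to 36, with 3 of them below the median of all promoters, 7: Hdac8 with 6 and a pair of the Hdac7 promoters with 6 and 5. Of all promoters, 23.3% have fewer than 3. The letters GGGCGG on either strand, the GC box, were in 5 of the 11, beside 35.7% of all promoters, and were in neither Hdac9 promoter nor in 4 of the others. Which start site feeds the Hdac9 probe set was not examined.

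Over the whole series, array medians lay between 7.13 and 7.22 on the log2 scale. Dicer1 read 9.58, 9.68 and 9.46 in the arrays labelled Dicer KO against 9.17, 9.21 and 9.18 in the controls. Dicer1 was therefore not lower but higher in every labelled KO array (0.39 ± 0.0874 SE), without passing the threshold (limma adjusted p = 0.102). With array weights, where 1116 genes passed, its limma adjusted p was 0.0164. The reason for the higher values was not tested. These values do not check the labels, since the exons its probe set reads were not examined and other cells keep the gene. The Y-linked gene Eif2s3y was above 9 in labelled KO arrays 1 and 3 and control array 2 and below 5 in the other 3 arrays, so the groups differ in sex (2 males and 1 female against 1 male and 2 females). The defining markers of cortex were bright: the vesicular glutamate transporter gene Slc17a7 averaged 12.17 in the labelled KO arrays and 12.27 in the controls, and Gad1, which makes GABA, 11.80 and 11.71. Markers of olfactory bulb averaged 8.46 in control array 1 and between 6.70 and 6.84 in the other 5 arrays, with their defining gene Eomes at 7.75 against 5.29 to 5.87.

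**Figure D1:**
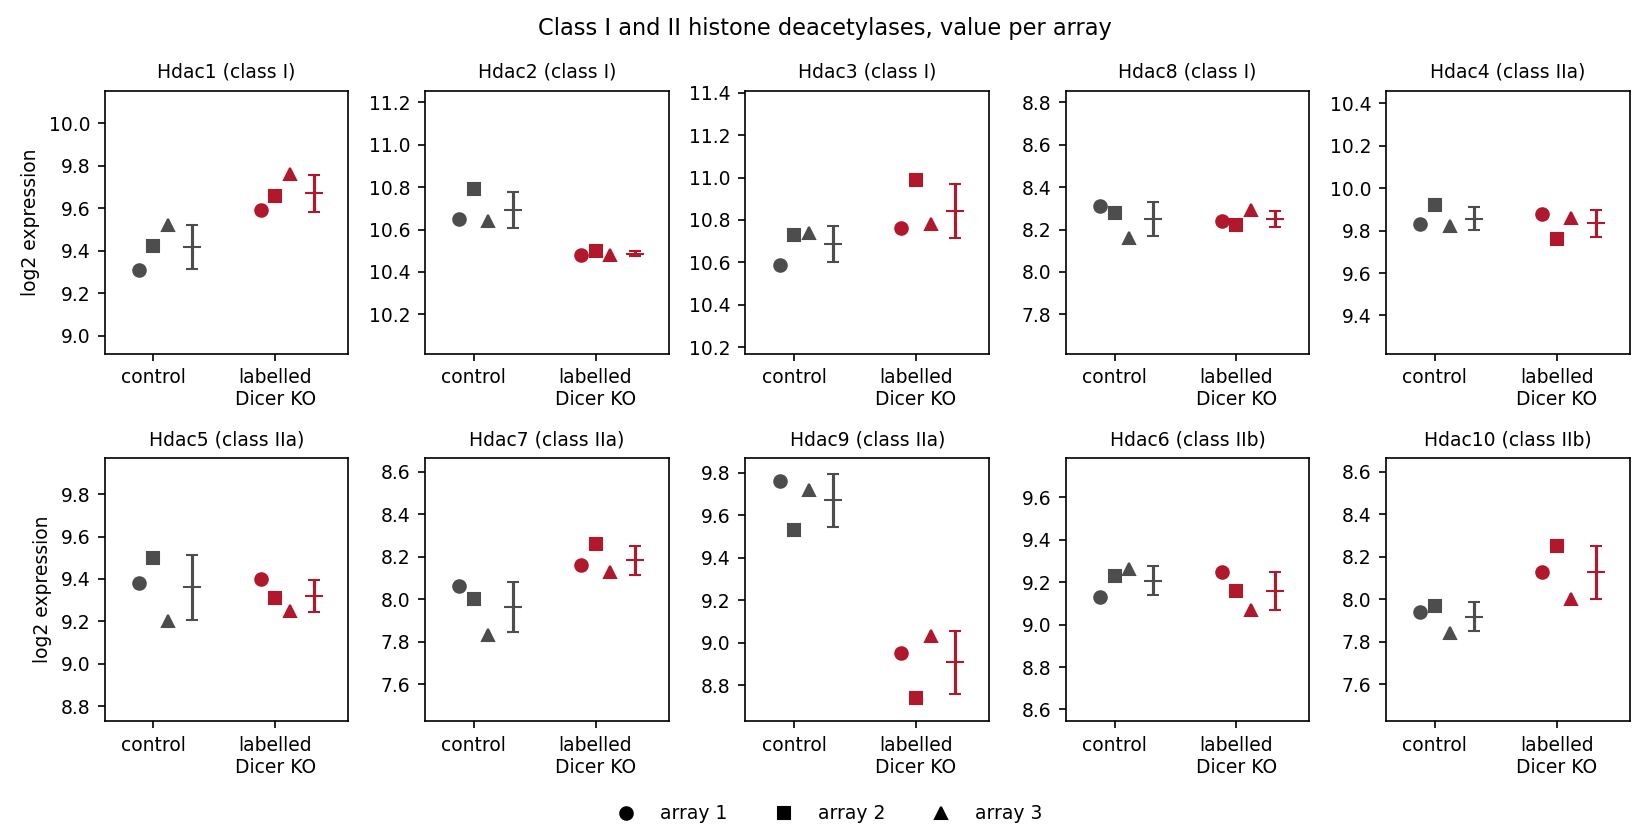
Log2 expression of the 10 class I and II histone deacetylase genes in each array, with controls in grey and arrays labelled Dicer KO in red; symbols mark the array number, bars the mean ± SD (n = 3), and every panel spans the same range of log2 units. Hdac9 shows the widest gap, with labelled KO arrays between 8.74 and 9.03 and controls between 9.53 and 9.76.

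Hdac9 fell in the arrays labelled Dicer KO. It encodes a class IIa deacetylase that holds MEF2 factors in a repressed state, and it is also made as a short form without the catalytic domain. Its log2 expression was 8.95, 8.74 and 9.03 in labelled KO arrays 1 to 3, and 9.76, 9.53 and 9.72 in control arrays 1 to 3. All labelled KO arrays lay below all controls, and array 2 was the lowest of each group. The means were 8.91 ± 0.147 and 9.67 ± 0.12 (SD, n = 3 each), a difference of -0.76 ± 0.106 (SE; 95% interval -1.0 to -0.52), so that the controls were 1.7-fold higher. Fitted across all genes with limma, the adjusted p was 0.0358, and 29 of the 19938 genes had a smaller p. Of all genes, 0.356% had a larger difference in either direction.

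The Hdac9 difference kept its direction with any array left out, while its call depended on single arrays. It ran from -0.83 to -0.68. The call was kept without labelled KO array 3 (adjusted p = 0.0365) and lost without labelled KO array 1 (0.113), labelled KO array 2 (0.111), control array 1 (0.167), control array 2 (0.0981) or control array 3 (0.124). With the sex of the animals in the model the difference was -0.77 and the adjusted p 0.126. Between males, 2 labelled KO arrays against 1 control, the difference was -0.542, and between females, 1 against 2, it was -0.994. These rest on too few arrays for a test.

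Markers of excitatory neurons were lower in the same arrays as Hdac9. The 11 of 12 listed markers that were measured averaged between 9.99 and 10.04 in the labelled KO arrays and between 10.10 and 10.21 in the controls, groups that did not overlap, and 8 of the 11 had values below 0, with a median of -0.126. Nrgn, the calmodulin-binding protein neurogranin, was the 1 of the 11 called lower, where 0.191% of all genes were. Its difference was -0.60 ± 0.0885 (SE; limma adjusted p = 0.0413). The Nrgn call was lost without labelled KO array 1 or 2 or any control array (limma adjusted p from 0.0834 to 0.188). Groups did not overlap in 2 of the 11, both lower (18.2%, beside 20.3% of all genes). At an unadjusted p under 0.05 in limma stood 3 of the 11, all lower (27.3%, beside 14.4% of all genes). Camk2a, the calcium-dependent kinase gene for which the driver is named, was at -0.16 ± 0.134. None of the 11 was dimmer than the median gene. Astrocyte markers (8 of 8 measured) averaged 10.79 to 11.35 in the labelled KO arrays and 10.74 to 10.91 in the controls, with the highest value in labelled KO array 3, and none of these was dimmer than the median gene either. Of the 8 astrocyte markers, 6 were above 0 and 2 below. Groups did not overlap in 3 of the 8, all higher (37.5%, beside 20.3% of all genes). These were Gja1 at 0.44 ± 0.118, Slc1a3 at 0.29 ± 0.106 and Gfap, given below. The astrocyte water channel gene Aqp4 was at 0.0988 ± 0.191 and the microglial receptor gene Cx3cr1 at 0.025 ± 0.106. Endothelial and mural markers were the other list without overlap, at 8.58 to 8.62 in the labelled KO arrays and 8.43 to 8.55 in the controls. Mean levels of these lists overlapped between the groups: interneurons 9.68 to 9.90 against 9.56 to 9.87, oligodendrocytes 9.27 to 9.76 against 9.37 to 9.80, microglia 8.02 to 8.85 against 8.20 to 8.57, and meninges and fibroblasts 8.0 to 8.38 against 7.99 to 8.18. No marker of these other lists passed in limma. The astrocyte filament gene Gfap read 9.10, 8.92 and 10.44 against 8.34, 8.35 and 8.55, at 1.07 ± 0.332 (SE; limma adjusted p = 0.196). All its labelled KO arrays lay above all controls, and without labelled KO array 3 the Gfap difference was 0.60. Of the microglial genes, Tmem119 was at -0.29 ± 0.0976, C1qb at 0.31 ± 0.374 and Itgam at -0.18 ± 0.252. The part of these shifts in the Hdac9 difference was not tested, while without control array 1, the array high in olfactory bulb markers, Hdac9 was at -0.72.

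The other class IIa genes gave smaller differences, and none passed the threshold. Hdac7, best known from endothelial cells and thymocytes, read 8.16, 8.26 and 8.13 in the labelled KO arrays and 8.06, 8.0 and 7.83 in the controls. The groups did not overlap, with the labelled KO arrays above, and the difference was 0.22 ± 0.0928 (SE; interval 0.00607 to 0.43; limma adjusted p = 0.335). Endothelial and mural markers (8 of 8 measured) averaged 8.58 to 8.62 in the labelled KO arrays and 8.43 to 8.55 in the controls, also without overlap. The tight junction gene Cldn5 was at 0.20 ± 0.176, a value that rested on single arrays, since leaving out control array 3 gave 0.0737 and leaving out labelled KO array 2 gave 0.0233. Of the 8 markers, 6 were above 0, with Pdgfrb at 0.36 ± 0.0884 and Pecam1 at 0.26 ± 0.113. The other 2 were below 0, with Flt1 at -0.16 ± 0.094. Groups did not overlap in 2 of the 8, both higher (25.0%, beside 20.3% of all genes). The part of these markers in the Hdac7 value was not tested.

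Hdac4 and Hdac5, the class IIa enzymes most studied in neurons, overlapped between the groups. Hdac4 read 9.88, 9.76 and 9.86 against 9.83, 9.92 and 9.82, with the highest and the lowest array both numbered 2. Its difference was -0.0202 ± 0.0828 (SE; interval -0.21 to 0.17; limma adjusted p = 0.944). The dimmer probe set of Hdac4, not used for the gene, had a difference of -0.0352 ± 0.105 and group means of 9.25 and 9.28, where the probe set used had 9.83 and 9.86. Hdac5 read 9.40, 9.31 and 9.25 against 9.38, 9.50 and 9.20, and its difference was -0.04 ± 0.101 (interval -0.27 to 0.19; limma adjusted p = 0.899). Both intervals include 0, so the data bound the difference and do not show it to be absent.

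Since Dicer makes mature microRNAs, some of those reported elsewhere to repress members of this family are printed here for orientation. The list is not complete, and the seed (bases 2 to 8) is in capitals. Mature microRNAs were not measured on these arrays. Those printed are miR-206, miR-22 and the miR-29 family for Hdac4, and miR-449a for Hdac1. Among the sequences printed, the 3 of miR-29 share a seed, and the others differ from these and from each other in seed.
mmu-miR-206-3p: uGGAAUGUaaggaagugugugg
mmu-miR-22-3p: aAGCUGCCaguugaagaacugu
mmu-miR-29a-3p: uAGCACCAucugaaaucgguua
mmu-miR-29b-3p: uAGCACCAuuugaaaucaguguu
mmu-miR-29c-3p: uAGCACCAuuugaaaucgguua
mmu-miR-449a-5p: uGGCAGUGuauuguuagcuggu
They come from RefSeq, build GRCm38.p6: miR-206 at chr1:20679055-20679076, miR-22 at chr11:75463772-75463793, miR-29a at chr6:31062673-31062694, miR-29c at chr1:195037600-195037621 and miR-449a at chr13:113037549-113037570. The sequence of miR-29b is made from 2 genes, at chr1:195037091-195037113 and chr6:31063025-31063047. Beside these sequences stand the values already given for Hdac4, at -0.0202, and the one below for Hdac1, at 0.26. Target sites of these seeds in the transcripts were not examined.

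In class I, the paralogous enzymes Hdac1 and Hdac2 lay on opposite sides of 0. Hdac1 read 9.59, 9.66 and 9.76 in labelled KO arrays 1 to 3 and 9.31, 9.42 and 9.52 in the controls. Every labelled KO array was above every control, by a narrow margin between labelled KO array 1 and control array 3, and the difference was 0.26 ± 0.0928 (SE; interval 0.0448 to 0.47). Its adjusted p of 0.256 (limma) did not pass. The other Hdac1 probe set, dimmer and listed under the same transcript accessions, read 9.30, 9.36 and 9.48 against 9.03, 9.18 and 9.22, a difference of 0.24 ± 0.0929. The 2 probe sets therefore gave nearly the same value, though probes for such similar sequence may read the same transcript and are not separate evidence.

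Hdac2, which limits synaptic plasticity and memory genes in neurons, read 10.48, 10.50 and 10.48 in the labelled KO arrays and 10.65, 10.79 and 10.64 in the controls. The labelled KO arrays were tightly grouped (SD 0.0119) and lay below all controls (SD 0.0857). The difference was -0.21 ± 0.0833 (SE; interval -0.39 to -0.0164; limma adjusted p = 0.308), which did not pass. Between males the Hdac2 difference was -0.311 and between females -0.142, and for Hdac1 these values were 0.261 and 0.245.

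Hdac3, the catalytic subunit of the NCoR and SMRT complexes, read 10.76, 10.99 and 10.78 against 10.59, 10.73 and 10.74. The groups did not overlap, but labelled KO array 1 exceeded control array 3 only slightly, and the difference of 0.16 ± 0.097 (SE; interval -0.0648 to 0.37) had an adjusted p of 0.522 in limma. Without labelled KO array 2 the Hdac3 difference was 0.0797. Hdac8, an X-linked enzyme that deacetylates cohesin, read 8.24, 8.22 and 8.29 against 8.31, 8.28 and 8.16. The Hdac8 groups overlapped, and the difference was -0.000704 ± 0.0836 (interval -0.19 to 0.19; limma adjusted p = 0.998), the smallest of the family.

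In class IIb, Hdac6, the X-linked deacetylase of tubulin, read 9.25, 9.16 and 9.07 against 9.13, 9.23 and 9.26. The groups overlapped, and the difference was -0.0489 ± 0.0879 (SE; interval -0.25 to 0.15; limma adjusted p = 0.851). Since the sexes are unequally spread, the X-linked members were also compared within them: Hdac6 was at -0.0718 between males and -0.0398 between females, and Hdac8 at -0.0139 and -0.0174. Hdac10, the polyamine deacetylase, read 8.13, 8.25 and 8.0 against 7.94, 7.97 and 7.84. Its labelled KO arrays lay above the controls, by little where array 3 met control array 2, and the difference was 0.21 ± 0.0949 (interval -0.00427 to 0.43; limma adjusted p = 0.358). Between males Hdac10 was at 0.0906 and between females at 0.366.

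**Figure D2:**
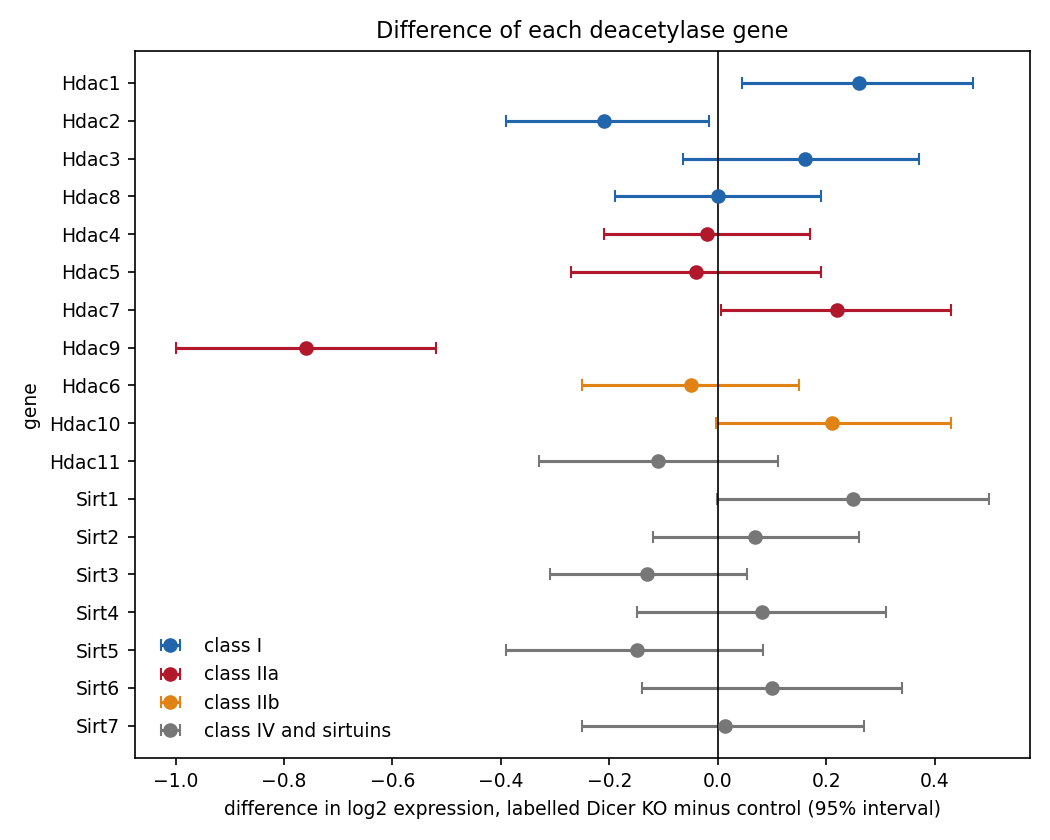
Difference in log2 expression (labelled Dicer KO minus control) with its 95% interval from limma for the class I, IIa and IIb genes and, in grey, Hdac11 and the sirtuins; 3 arrays a group. Hdac9, at -0.76, lies apart from all others, which fall between -0.21 and 0.26.

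Across the family, 1 of the 10 members passed an adjusted p of 0.05, where 0.281% of all genes did (0.191% lower and 0.0903% higher), and it was the member known beforehand. In 6 of the 10 the groups did not overlap: Hdac1, Hdac3, Hdac7 and Hdac10 had higher values in the labelled KO arrays and Hdac2 and Hdac9 lower ones. Over all genes, 20.3% showed such a separation. At an unadjusted p under 0.05 stood 4 members (Hdac1, Hdac2, Hdac7 and Hdac9), beside 14.4% of all genes. The median difference of the 10 was -0.0104, with 4 above and 6 below 0, against a median of -0.00919 over all genes. The members thus lay on both sides of 0. The members also differ in brightness, from Hdac10, brighter than 56.4% of genes, to Hdac3, brighter than 95.1%, and levels of different probe sets are not compared further.

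The remaining deacetylases showed no member past the threshold. Hdac11, the single class IV enzyme, known from oligodendrocytes, read 9.59, 9.38 and 9.54 against 9.51, 9.60 and 9.72, a difference of -0.11 ± 0.0964 (SE; limma adjusted p = 0.675). The sirtuins, which use NAD and form class III, ranged from Sirt5 at -0.15 to Sirt1 at 0.25. Sirt1, the nuclear sirtuin that is high in neurons, was the nearest to the threshold (0.25 ± 0.11, limma adjusted p = 0.35), and its groups overlapped. Sirt2 was at 0.0686, Sirt4 at 0.0809, Sirt6 at 0.0998 and Sirt7 at 0.0136. The mitochondrial sirtuin Sirt3, at -0.13, was the 1 of these 8 genes with groups that did not overlap. That is 12.5%, below the 20.3% of all genes.

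The proteins with which the family works, and those that add or read acetyl groups, were read from fixed lists, with 79 of 84 genes measured and the others not analysed here. No gene of these lists passed over all genes in limma (0 of 79), and 13 had an unadjusted p under 0.05, which is 16.5% beside 14.4% of all genes. Groups did not overlap in 24 of the 79, or 30.4%, beside 20.3% of all genes.

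The class I complexes were mixed. Among 13 NuRD subunits, 8 were above 0, with a median of 0.0669. Mbd2, which brings the complex to methylated DNA, was at 0.30 ± 0.0814 (SE; limma adjusted p = 0.146), with 10.56, 10.58 and 10.63 against 10.36, 10.25 and 10.25. Mta2, a NuRD scaffold, was at 0.14 ± 0.0915, and Chd4, its chromatin remodelling ATPase, at 0.0831 ± 0.0821. Among 13 Sin3 subunits, 9 were above 0, yet those with the smallest p were lower: the scaffold Sin3b at -0.34 ± 0.0835 (limma adjusted p = 0.121) and Suds3, which enhances deacetylation by the complex, at -0.34 ± 0.0919 (limma adjusted p = 0.153). Brms1l, another Sin3 subunit, was at -0.23 ± 0.0918. At an unadjusted p under 0.05 stood 3 lower and 1 higher Sin3 subunits (30.8%, beside 14.4% of all genes). Groups did not overlap in 3 lower and 3 higher ones (46.2%, beside 20.3% of all genes). Sin3b read 9.16, 9.20 and 9.12 against 9.46, 9.59 and 9.45. Of 9 measured CoREST subunits, 8 were above 0, with a median of 0.133, and those with the smallest p were Rcor2 at 0.22 ± 0.0778 and Rcor3 at 0.18 ± 0.0825, scaffolds of that complex, before Hmg20b at -0.13 ± 0.0833. For the NCoR and SMRT complexes 3 of 5 listed genes were measured, with Gps2 at 0.25 ± 0.114, Tbl1xr1 at 0.20 ± 0.134 and Tbl1x at 0.0258 ± 0.0904, so these values do not stand for the whole complex.

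The partners of class IIa did not move as a block. Of 3 measured MEF2 factors, Mef2a was at 0.33 ± 0.0808 (SE; limma adjusted p = 0.127), with 11.31, 11.33 and 11.44 in the labelled KO arrays and 11.04, 11.05 and 11.03 in the controls. Mef2d was at 0.17 ± 0.0831, and Mef2c, the MEF2 factor most tied to cortical excitatory neurons, at -0.13 ± 0.103 with overlapping groups. The 7 14-3-3 proteins were all below 0, with a median of -0.0823. Of these, Ywhag, the gamma form, read 11.30, 11.11 and 11.25 against 11.60, 11.54 and 11.53, a difference of -0.34 ± 0.0865 (limma adjusted p = 0.134), Ywhaq was at -0.13 ± 0.0794 and Ywhaz at -0.13 ± 0.101. The 16 kinases that phosphorylate class IIa proteins had a median of -0.00451. Camk1g, a calcium/calmodulin-dependent kinase, read 8.41, 8.26 and 8.09 against 8.70, 8.81 and 8.69, at -0.48 ± 0.102 (limma adjusted p = 0.0888), and Camk4, the nuclear kinase of that family, was at -0.20 ± 0.0915. Camk1 was at -0.15 ± 0.0905.

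Activity-regulated genes, several of them reported MEF2 targets, mostly had values below 0, and none passed the threshold. Of 19 measured, 17 were below 0, with a median of -0.415 beside -0.00919 over all genes. None passed in limma over all genes, and at an unadjusted p under 0.05 were 7 lower and 1 higher, where 7.39% of all genes were lower and 7.01% higher. In 5 of them the labelled KO arrays lay below all controls and in 1 above, where 20.3% of all genes had groups apart in either direction. Egr3, an immediate early transcription factor, read 8.73, 8.83 and 8.85 against 9.22, 9.48 and 9.34, at -0.54 ± 0.0942 (SE; limma adjusted p = 0.059). Bdnf, the neurotrophin, read 7.61, 7.48 and 7.58 against 7.86, 7.96 and 8.14, at -0.43 ± 0.0972 (limma adjusted p = 0.102). The clock gene Per1 went the other way, at 0.58 ± 0.139 (limma adjusted p = 0.118), with 9.65, 9.70 and 9.70 against 8.87, 8.98 and 9.44. Excitatory neuron markers were lower in the same arrays, at the values given beside Hdac9, and their part was not tested.

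The enzymes that add the acetyl groups and the proteins that read them were mostly above 0. Of 13 histone acetyltransferases 10 were above 0, beside 9434 of all 19938 genes. The median of the 13 was 0.12, and none of them passed the threshold in limma. An unadjusted p under 0.05 was found for 2 of the 13 (15.4%), close to the 14.4% of all genes. Groups did not overlap in 5 of the 13 (38.5%), 4 higher and 1 lower, beside 20.3% of all genes. Kat2b, the acetyltransferase PCAF, read 7.44, 7.67 and 7.96 against 7.38, 7.37 and 7.32, at 0.33 ± 0.126 (SE; limma adjusted p = 0.273), with a wide spread among the labelled KO arrays. Kat6b was at 0.21 ± 0.0824 and the coactivator Ncoa1 at 0.16 ± 0.0818. The BET readers Brd2 and Brd3 were at 0.25 ± 0.0996 and 0.21 ± 0.0811 (limma adjusted p = 0.302 and 0.283). Both had groups that did not overlap, as 20.3% of all genes did.

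**Figure D3:**
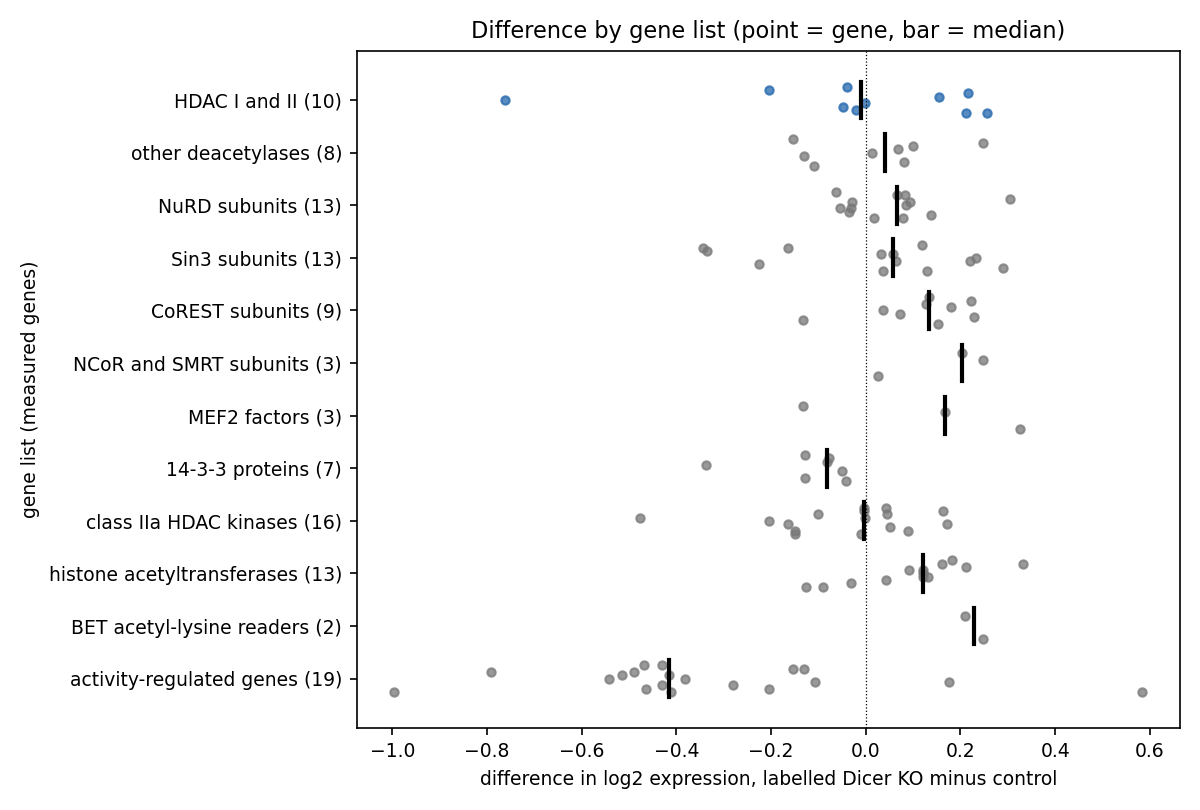
Difference in log2 expression (labelled Dicer KO minus control) of each measured gene of the deacetylase family, in blue, and of the lists of complexes, partners and activity-regulated genes, in grey; black bars are list medians. The family's points lie on both sides of 0 with Hdac9 alone at the far left, and the activity-regulated genes have the lowest median, -0.415.

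The genes whose profile was nearest to that of Hdac9 were found by the root mean square difference of log2 values, each gene centred on its own mean, over the 6 arrays. Hs3st2, a heparan sulfate sulfotransferase, was nearest, at 0.0452 log2 units, where the profile of Hdac9 itself has a root mean square of 0.396. Its values were 8.89, 8.62 and 8.88 against 9.58, 9.45 and 9.54. Then came the uncharacterised gene 1110008P14Rik at 0.0463, the metabotropic glutamate receptor gene Grm8 at 0.0751, Gask1b, which encodes a Golgi protein, at 0.0906, and Rph3a, a Rab effector on synaptic vesicles, at 0.101. All 5 share with Hdac9 the lowest value in labelled KO array 2 among the 6 arrays. These genes were picked on the arrays that define the profile, so their likeness is a description.

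**Figure D4:**
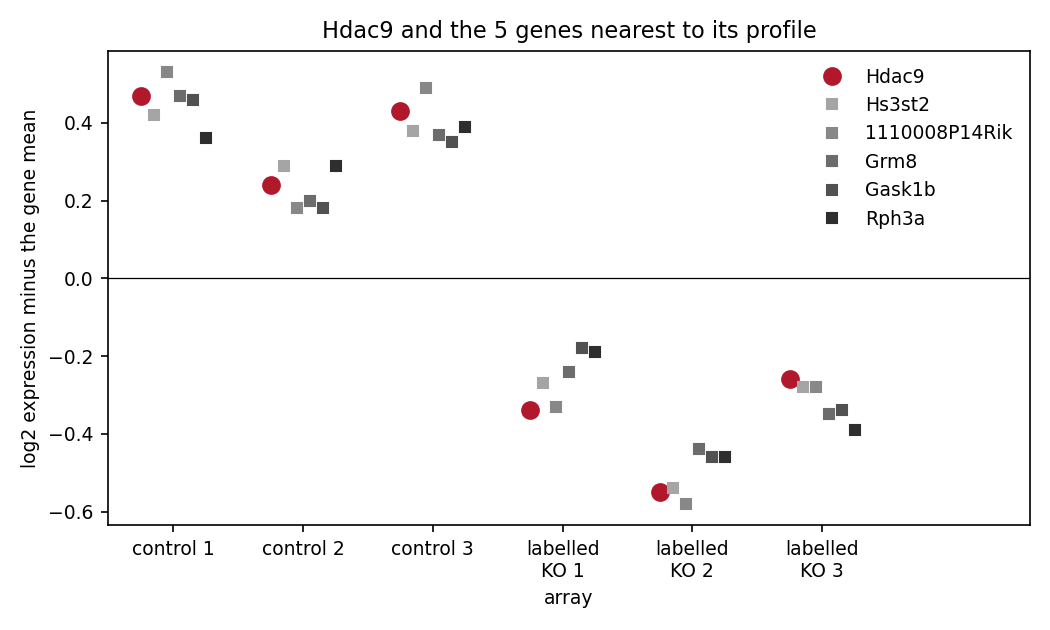
Log2 expression minus the gene's own mean for Hdac9 (red circles) and the 5 genes of nearest profile (grey squares), by array. Hdac9 lies between 0.24 and 0.47 in the controls and between -0.55 and -0.26 in the labelled KO arrays, and the other 5 genes lie on the same side of 0 as Hdac9 in every array.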

How the data were processed

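Expression was measured in 6 arrays, 3 a group, grouped by the sample titles, which call them biological replicates. The authors deposited 1 log2 value per probe set and array (35557 rows, 1.93 to 14.84). The submitters' processing notes name RMA and limma, with no version or background step given in the sources used here. Differences of dim transcripts are shrunk by RMA, and normalization between arrays hides a shift common to most genes. No detection call was used, so signal over background cannot be given, and the small number of arrays limits precision.

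Of the rows, 21789 carry 1 gene symbol, 21698 of them named through their gene identifier with the RefSeq table of GRCm38.p6. Rows with several symbols (1621) or no listed gene (12147) were left out, and the probe set of highest mean stood for each gene. The comparison of the groups used limma's lmFit and eBayes (limma version 3.58.1, R version 4.3.3) on group alone, with 4.89 prior degrees of freedom, two-sided, adjusted by Benjamini-Hochberg over 19938 genes at 0.05. Errors of differences are moderated standard errors, and intervals are 95%. An exact permutation test of 3 against 3 cannot go below 0.1, so none is given. On simulated data with the same genes, 87.6% of genes changed by 1 and 34.2% of those changed by 0.5 were called, with 3.94% of calls false (5 runs, each with 100 genes per size). The simulated noise was independent between genes and arrays, without the sex and olfactory bulb differences of the real arrays. The simulated shares therefore do not give the error rate of the real calls.

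Members, gene lists and tests were chosen with earlier results of these data known. Named were all members, the other deacetylases, the called genes of each partner and marker list or otherwise up to 3 of smallest p, defining markers, Dicer1, the sex genes Eif2s3y and Xist, and the 5 genes nearest in profile to a called member. Marker genes are given mostly through their list means. Lists are described by counts and medians. Alternatives were a block for the array number, single arrays left out, median subtraction, a second quantile normalization, a filter on dim genes, the mean of probe sets, every row tested, a trended and robust prior, array weights, sex as a covariate and a threshold of 0.1.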

Additional observations from a re-analysis of the deposited data

How the results depend on the processing

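Hdac9 kept its direction in all 15 alternatives fitted and passed the threshold in 8. Beside the left-out arrays (-0.83 to -0.68), its call was lost when every row was tested (-0.76, adjusted p = 0.24) and with sex as a covariate (-0.77, adjusted p = 0.126). The count of members past the threshold, 1, was then 0 in both, and 0 to 1 with arrays left out. Hdac1, Hdac2, Hdac3, Hdac7 and Hdac10 kept their directions throughout and passed in none. Of the members near 0, Hdac4 was at 0.00116 and Hdac6 at 0.0277 with array weights. With arrays left out, Hdac4 ran from -0.0429 to 0.0156, Hdac5 from -0.12 to 0.0306 and Hdac8 from -0.0456 to 0.0298.

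All genes past the threshold numbered 56, and 215 with the array number as a replicate block, 98 without the dimmest genes, 0 of these genes with every row tested (2329 at an unadjusted p under 0.05), 1116 with array weights, 0 with sex as a covariate (2292 at an unadjusted p under 0.05), 320 at a threshold of 0.1, and from 0 to 129 with arrays left out (129 without labelled KO array 3, 0 without any other, where 2197 to 2532 genes had an unadjusted p under 0.05). The genes past it among the other deacetylases, partners and activity-regulated genes numbered 0. With the block they numbered 3 (Arc, Egr3 and Fosl2). With a second quantile normalization 1 passed and without the dimmest genes 1 passed (Egr3 in both). With array weights they numbered 10. Of these, Mef2a, Camk1g, Sin3b and Mbd2 are from the partner lists. The others, Arc, Bdnf, Egr1, Egr3, Fosl2 and Per1, are activity-regulated genes. At a threshold of 0.1, 2 genes of these lists passed. Arc, Egr1 and Fosl2 are named after their values were seen. Same-numbered arrays deviated together with r of 0.0895, 0.166 and 0.294 across genes, and differently numbered arrays with r from -0.229 to 0.0943. Of the same-numbered values 1 is under 0.1, and the numbers were not taken to pair the animals. Whether they do is not settled by these values. Under the block Hdac9 was at -0.76 (adjusted p = 0.0244).

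Among other named genes, directions turned in 16 of 1094 fits. With array weights Sirt4 was at -0.00771, Sirt7 at -0.0657 and Tbl1x at -0.0387, and with sex as a covariate Cx3cr1, a microglial gene, was at -0.0171 and Xist, a sex gene, at 0.37. With arrays left out, Sirt6 ran from -0.00892 to 0.18, Sirt7 ran from -0.0795 to 0.0912, Gad1 ran from -0.0291 to 0.24, Aqp4 ran from -0.13 to 0.3, Tbl1x ran from -0.0449 to 0.069, C1qb ran from -0.22 to 0.64, Itgam ran from -0.44 to 0.0445 and Cx3cr1 ran from -0.0536 to 0.0929.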
